A study of Mus musculus with 6 samples.

Results

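The genes described here are the matrix metalloproteases (MMPs), the ADAM, ADAMTS and ADAMTSL families and the tissue inhibitors of metalloproteases (TIMPs). They are all genes of the deposited comparison table whose symbol is Mmp, Timp, Adam, Adamts or Adamtsl followed by a number and at most 1 letter. This gave 39 of the 12389 genes in the table, made up of 3 Timp, 11 Mmp, 10 Adam, 12 Adamts and 3 Adamtsl genes. The libraries hold messenger RNA of primary mouse vascular smooth muscle cells (VSMCs), which form the contractile layer of arteries, grown from explants of thoracic aorta in medium with serum. Of the 6 libraries, 3 (KO) came from mice with a smooth muscle-specific loss of LRRC8A, without which volume-regulated anion channels do not form, and 3 (WT) from wild-type mice. All 6 cultures were untreated and at passage 6 or below, and the submitters call the libraries of a genotype independent biological replicates. The sample titles put the libraries in their groups, because the labels' genotype entry is wild type throughout. No source used here gives the Cre driver of the deletion or the strain, age and sex of the mice.

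Metalloproteases of these families use a zinc ion to cut proteins outside the cell or at its surface. MMPs are made as inactive precursors and degrade collagens, proteoglycans and other matrix proteins, ADAMs cut membrane proteins close to the membrane and release their outer part, and ADAMTS enzymes are secreted proteases of proteoglycans and procollagens. ADAMTSL proteins resemble ADAMTS proteins but lack the protease domain, and TIMPs bind active metalloproteases and block them. In the arterial wall these genes are known for their part in matrix turnover, in smooth muscle migration and in aneurysm and plaque remodelling.

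Values are scaled reads as deposited, in which each library's reads per gene were divided by a factor of its own. The estimated depth was 31.0 to 47.9 M reads per library. It was highest in replicate 3 of both groups, at 47.9 M in KO and 45.3 M in WT, against 31.0 to 35.9 M in the others. Every gene in the table reached at least 200.5 estimated reads in 1 or more libraries. A gene absent from the table can thus still be expressed at a lower level, and shares of all genes refer to genes in the table. Lrrc8a had 868, 672 and 506 scaled reads in KO replicates 1 to 3, against 2578, 2194 and 1221 in WT replicates 1 to 3, so every KO value was under every WT value, the direction the titles give. Among markers of smooth muscle, Acta2 (smooth muscle actin) had 18724, 21829 and 59317 scaled reads in KO and 10651, 13083 and 130984 in WT, and Myh11 (smooth muscle myosin) 41.7, 20.8 and 96.8 scaled reads in KO and 90.1, 152 and 1656 in WT, while Myocd is not among the genes in the table. Replicate 3 stood apart in both groups, with the highest Acta2 and the highest Mki67, a marker of dividing cells, at 707, 4423 and 9529 scaled reads in KO and 736, 1887 and 5332 in WT. Of the other smooth muscle markers, Tagln, Cnn1, Lmod1 and Myh11 were also highest in replicate 3 of both groups. Smtn differed in WT, where replicate 1 was highest, with 2234, 2191 and 2635 scaled reads in KO and 3049, 2474 and 2911 in WT. Of other marker lists, 1 of 5 endothelial genes was in the table (summed 21.3 to 423 scaled reads in KO and 42.7 to 433 in WT) and 3 of 6 leukocyte and macrophage genes (392 to 1197 in KO and 1233 to 1594 in WT). The leukocyte and macrophage sum was thus lower in every KO library than in any WT library, though narrowly. Of the genes summed, the groups were separate for Lyz2 and overlapped for Csf1r and Cd68. The defining genes Ptprc, Adgre1 and Itgam were not among the genes in the table, and the part of such cells in the values below was not tested. All 5 fibroblast genes were in the table (16869 to 40165 in KO and 18011 to 31215 in WT), as were 4 of 6 mesothelial and epithelial genes (1098 to 5766 in KO and 5350 to 9801 in WT). In bulk RNA a smaller number of cells of a type and less RNA per cell cannot be told apart.

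Some of the sharpest contrasts in level between libraries were found in a cluster of MMP genes on mouse chromosome 9. There Mmp13 and Mmp3 lie 162 kb apart and Mmp3 and Mmp27 115 kb apart. No other gene of the table starts between them, but genes absent from the table may lie there. The upstream sequences of Mmp13, Mmp3 and Mmp27 are shown because Mmp13 and Mmp3 followed a common pattern over the libraries. Each is the 250 bases before the gene start in RefSeq (GRCm38.p6), written 5′ to 3′ on the gene's strand, and capitals mark the AP-1 motif TGANTCA, searched on both strands. The windows are chr9:7272264-7272513, plus strand, for Mmp13, chr9:7445572-7445821, plus strand, for Mmp3 and chr9:7571146-7571395, plus strand, for Mmp27.
Mmp13: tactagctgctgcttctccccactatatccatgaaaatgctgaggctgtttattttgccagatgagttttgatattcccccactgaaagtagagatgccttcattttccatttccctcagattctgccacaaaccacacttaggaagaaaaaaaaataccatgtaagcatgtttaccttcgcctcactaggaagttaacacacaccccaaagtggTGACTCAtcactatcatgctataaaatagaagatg
Mmp3: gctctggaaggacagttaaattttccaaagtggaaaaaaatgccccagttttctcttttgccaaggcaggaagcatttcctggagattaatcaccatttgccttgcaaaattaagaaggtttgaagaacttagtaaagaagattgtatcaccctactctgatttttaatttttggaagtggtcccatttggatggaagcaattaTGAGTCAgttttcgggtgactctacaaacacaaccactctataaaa
Mmp27: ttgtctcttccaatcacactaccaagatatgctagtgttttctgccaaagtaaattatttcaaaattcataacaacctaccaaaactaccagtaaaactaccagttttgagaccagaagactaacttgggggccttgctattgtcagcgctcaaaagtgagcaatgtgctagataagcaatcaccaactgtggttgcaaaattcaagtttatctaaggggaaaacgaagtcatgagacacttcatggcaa
The motif, known as a target of Fos and Jun dimers, begins 35 bases before the start of Mmp13 and 46 bases before that of Mmp3, and no match lies in the Mmp27 window. The letters TATAAA, searched on the gene's strand, were also found in the Mmp13 and Mmp3 windows, after the AP-1 motif. They begin 16 bases before the start of Mmp13 and 7 bases before that of Mmp3. The Adamts1 window also held TATAAA, beginning 32 bases before the start of that gene. RefSeq promoters were matched for 27 of the 39 genes, by symbol, and besides Mmp13 and Mmp3 only 1 of 3 windows of Adam19 held the AP-1 letters. Of all 32817 windows of this length 6.75% held TGANTCA and 7.60% held TATAAA. A match describes letters and does not show that a factor binds there.

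Mmp13, or collagenase 3 (ENSMUSG00000050578, chromosome 9, 7272514 to 7283331, GRCm38), had 1304, 1392 and 79.7 scaled reads in KO replicates 1 to 3, against 3791, 10703 and 284 in WT replicates 1 to 3. Every KO library lay below the WT library of the same number, at 0.344, 0.130 and 0.281 times its value, but the groups overlapped because replicate 3 was low in both. The group values were 925 ± 733 in KO and 4926 ± 5301 in WT (SD, n = 3 each). The log2 fold change, here and below a difference of log2(value + 2) between KO and WT from limma fitted over all genes, was -2.10 (SE 1.63) with an unadjusted p of 0.242. It ran from -3.59 without WT replicate 3 to -0.75 without KO replicate 3. With the replicate number as a block the difference was the same and its SE 0.30, with an unadjusted p of 0.000567, the smallest of any member in the blocked fit, and an adjusted p of 0.259. Mmp13 therefore did not pass in either fit.

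Mmp3, or stromelysin 1 (ENSMUSG00000043613, chromosome 9, 7445822 to 7455975), had 8816, 20849.9 and 307 scaled reads in KO replicates 1 to 3, against 51174, 69414 and 247 in WT replicates 1 to 3. In replicates 1 and 2 KO was at 0.172 and 0.300 times WT, and in replicate 3 both libraries were low, with KO at 1.24 times WT. Its highest library was 279 times its lowest on the value + 2 scale, the widest range of any of the 39 genes. Mmp3 had a log2 fold change of -1.32 (SE 2.54), which ran from -3.96 to 0.50 as single libraries were left out. The positive end was reached without KO replicate 3 and the negative end without WT replicate 3. With both libraries numbered 3 left out, a choice made after the data were seen, the log2 fold change was -2.14 for Mmp3 and -2.24 for Mmp13, with unadjusted p of 0.00704 and 0.00782 in limma, and the adjusted p were 0.703 and 0.706.

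Mmp27, an MMP of the same cluster with a low level, had 34.2, 76.3 and 34.2 scaled reads in KO replicates 1 to 3, against 256, 117 and 29.3 in WT replicates 1 to 3, and a log2 fold change of -1.07 (SE 0.97). KO was below WT in replicates 1 and 2 and slightly above it in replicate 3, as for Mmp3. Mmp13 and Mmp3 were lowest in replicate 3 of each group, where Acta2 and Mki67 were highest. Of the 5 fibroblast markers, Dpt and Pi16 were also lowest in replicate 3 of each group, with Dpt at 2030.2, 9562 and 305 scaled reads in KO and 15301, 8377 and 1442 in WT. The other 3 did not follow this order, since Pdgfra was highest in KO replicate 3 and lowest in WT replicate 3, while Lum and Dcn were lowest in KO replicate 3 and highest in WT replicate 3. The part of these differences between libraries, or of the greater depth of replicate 3, in the MMP values was not tested.

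**Figure D1:**
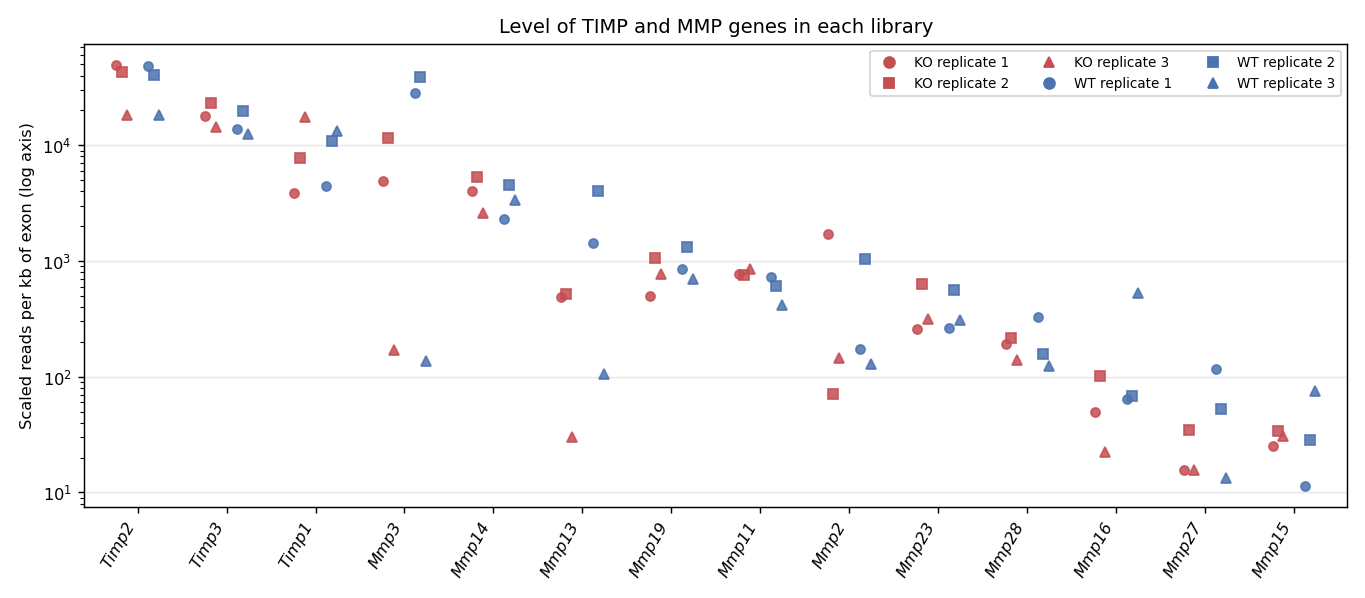
Scaled reads per kb of exon (log axis) of the 3 TIMP and 11 MMP genes, each point 1 library, with KO left of WT and symbols for the replicate number. Mmp3 and Mmp13 lie far lower in replicate 3 of both groups than in replicates 1 and 2, while Timp2 and Timp3 stay near the top in every library.

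The membrane-type MMPs are anchored in the plasma membrane. Mmp14, the main activator of pro-MMP2 and the MMP with the highest level after Mmp3 per length (3682 scaled reads per kb over all 6 libraries), had 23939.5, 31639 and 15442 scaled reads in KO and 13615, 26944 and 20089.6 in WT. The groups overlapped, and the log2 fold change was 0.22 (SE 0.37). Mmp15 had 136, 181 and 164 scaled reads in KO and 61.6, 152 and 408 in WT, a log2 fold change of 0.02 (SE 0.68). Mmp16 had 430.0, 882 and 192 scaled reads in KO and 557, 591 and 4592 in WT, with WT replicate 3 far above every other library and a log2 fold change of -1.45 (SE 0.95). In the authors' deposited table Mmp16 had a log2 ratio of -1.93 at an FDR of 0.658. Without WT replicate 3 the log2 fold change of Mmp16 was -0.45.

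Mmp2, or gelatinase A, which cuts denatured collagen and basement membrane collagen, varied widely among cultures of each genotype. It had 5792, 238 and 486 scaled reads in KO and 588, 3509.8 and 434 in WT. KO replicate 1 and WT replicate 2 were the 2 high libraries, 1 in each group. The log2 fold change was -0.14 (SE 1.33), and by replicate number KO was at 9.85, 0.0678 and 1.12 times WT.

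Mmp11, or stromelysin 3, had 2154, 2086 and 2346 scaled reads in KO replicates 1 to 3, against 2026, 1678 and 1167 in WT replicates 1 to 3. All 3 KO libraries lay above all 3 WT libraries, with KO replicate 2 and WT replicate 1 separated narrowly. The group values were 2196 ± 135 in KO and 1624 ± 432 in WT (SD, n = 3 each), the log2 fold change was 0.47 (SE 0.24) and the unadjusted p 0.0924. Mmp19 had 1749, 3716 and 2746 scaled reads in KO and 2995, 4625 and 2457 in WT, a log2 fold change of -0.31 (SE 0.35). Of its exonic bases 22.3% are shared with Tmem198b on the opposite strand, and whether strand was used in counting is not given in the sources used here. Mmp23, a membrane MMP without a hemopexin domain, had 604, 1470.1 and 732 scaled reads in KO and 621, 1313 and 725 in WT, with KO close to WT in each numbered pair and a log2 fold change of 0.05 (SE 0.42). Mmp28, or epilysin, had 747, 829 and 544 scaled reads in KO and 1266, 606 and 476 in WT, a log2 fold change of -0.04 (SE 0.39).

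**Figure D2:**
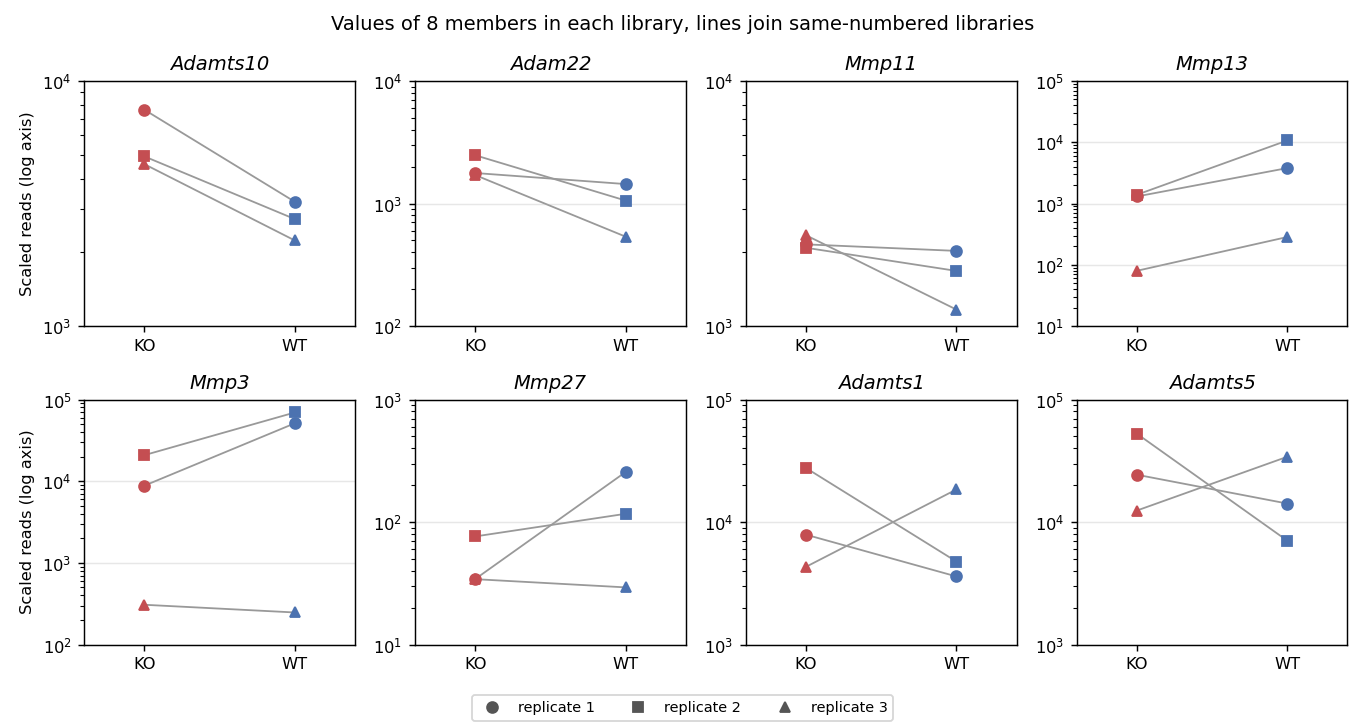
Scaled reads (log axis) of 8 members in every library, KO left and WT right, with grey lines joining libraries of the same replicate number. Adamts10, Adam22 and Mmp11 have every KO library above every WT library, Mmp13 has 3 lines in 1 direction at very different levels, and the lines of Adamts1 and Adamts5 cross.

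TIMP transcripts were among the most abundant of the 39 genes per length, with Timp2 highest in every library. Timp2, which inhibits MMPs and also takes part in the activation of pro-MMP2 on the cell surface, averaged 36353 scaled reads per kb over the 6 libraries. Timp3, which is held in the matrix and inhibits ADAM17 and ADAMTS enzymes as well as MMPs, averaged 16972. Timp1, the secreted inhibitor induced by growth factors, averaged 9673. Mmp3 averaged 13956, but its place changed between libraries. It exceeded Timp3 in WT replicates 1 and 2, at 28414 and 38542 scaled reads per kb, and had 170 in KO replicate 3 and 137 in WT replicate 3, where Timp1 had 17667 and 13322. Timp4 is not among the genes in the table, which does not show that it is not expressed.

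Timp2 had 192447, 167944 and 70576 scaled reads in KO replicates 1 to 3, against 189979, 157235 and 71609 in WT replicates 1 to 3. The KO and WT libraries of 1 number were nearly equal, at 1.01, 1.07 and 0.986 times, while replicate 3 was far below replicates 1 and 2 in both groups. Timp2 had a log2 fold change of 0.03 (SE 0.53). Timp3 had 146111, 190141 and 117280.0 scaled reads in KO replicates 1 to 3, against 111987, 161449 and 102363 in WT replicates 1 to 3, with KO at 1.3, 1.18 and 1.15 times WT by number and a log2 fold change of 0.27 (SE 0.33). The order by number was KO above WT in all 3 pairs, the groups overlapped, and the unadjusted p was 0.437. Of the exonic bases of Timp3 21.3% are shared with Syn3 on the opposite strand. Timp1 had 3425, 6953 and 15689 scaled reads in KO and 3971, 9670.1 and 11829.9 in WT, lowest in replicate 1 and highest in replicate 3 of each group, with a log2 fold change of -0.09 (SE 0.64).

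TIMPs made up 68.4%, 62.3% and 73.8% of the summed scaled reads per kb of the 39 genes in KO replicates 1 to 3, against 55.1%, 51.6% and 61.4% in WT replicates 1 to 3. MMPs made up 12.4%, 17.0% and 7.47% in KO, against 28.5%, 36.9% and 8.20% in WT. The TIMP share was thus higher in every KO library than in any WT library. Without Mmp3 the TIMP share was 71.8%, 69.0% and 74.0% in KO, against 71.9%, 71.6% and 61.5% in WT, and the groups overlapped. These shares are descriptions and carry no test.

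**Figure D3:**
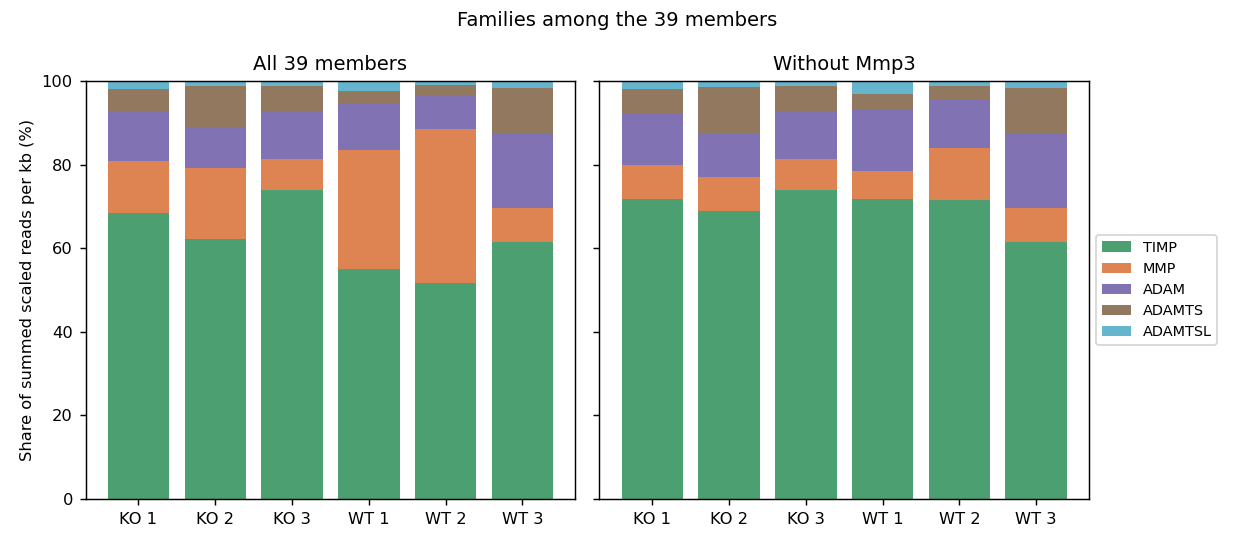
Share of each family in the summed scaled reads per kb of the members (%), 1 bar per library, for all 39 genes and without Mmp3. The TIMP share runs from 62.3% to 73.8% in KO and from 51.6% to 61.4% in WT with all genes, and the groups overlap once Mmp3 is removed.

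ADAM genes with an active protease domain were led by Adam9, a widely expressed sheddase, at 7033 scaled reads per kb, and Adam10, the main sheddase of Notch receptors and cadherins, at 2180.2. Adam9 had 29489.9, 28653 and 18705 scaled reads in KO and 34328, 28786 and 33693 in WT. KO was below WT in all 3 numbered pairs, by the least in replicate 2, and the log2 fold change was -0.36 (SE 0.27). Adam10 had 12685, 11374 and 6736 scaled reads in KO and 11990.5, 11638 and 9842 in WT, a log2 fold change of -0.17 (SE 0.29). Adam17, which releases tumour necrosis factor and ligands of the epidermal growth factor receptor, had 2876, 3236 and 1599 scaled reads in KO and 2603, 2275 and 1455 in WT. KO was above WT in all 3 numbered pairs for Adam17, the groups overlapped, and the log2 fold change was 0.26 (SE 0.34).

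Adam19, or meltrin beta, a sheddase known for its part in heart development, had 4252, 2443 and 2146 scaled reads in KO replicates 1 to 3, against 5345, 3524 and 6092 in WT replicates 1 to 3. KO was below WT in each pair, at 0.795, 0.693 and 0.352 times, while KO replicate 1 lay above WT replicate 2. The group values were 2947 ± 1139.7 in KO and 4987 ± 1321 in WT (SD, n = 3 each), with a log2 fold change of -0.79 (SE 0.33) and an unadjusted p of 0.0478. Adam33, an ADAM found mainly in smooth muscle and fibroblasts, had 403, 482 and 441 scaled reads in KO and 1149, 403 and 604 in WT, a log2 fold change of -0.57 (SE 0.39). WT replicate 1 was far above the rest.

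Adam22 and Adam23 encode ADAMs without protease activity, known as binding partners of the secreted LGI proteins in the nervous system. Adam22 (ENSMUSG00000040537, chromosome 5, 8072352 to 8368160) had 1775, 2478 and 1707 scaled reads in KO replicates 1 to 3, against 1441, 1057 and 536 in WT replicates 1 to 3. All 3 KO libraries lay above all 3 WT libraries, and by number KO was at 1.23, 2.34 and 3.18 times WT. The group values were 1987 ± 427 in KO and 1012 ± 454 in WT (SD, n = 3 each), with a log2 fold change of 1.06 (SE 0.38) and an unadjusted p of 0.0253. Adam23 had 998, 4007 and 3209 scaled reads in KO and 1679.7, 3113 and 7352 in WT, with no common direction by number and a log2 fold change of -0.53 (SE 0.71). The remaining ADAM genes were Adam12, Adam15 and Adam1a. Adam12 ran from 361 to 3351 scaled reads in KO and from 165 to 3378 in WT, highest in replicate 3 of both, and Adam15 from 4577 to 6546 in KO and from 4225 to 7019 in WT. Adam1a shares 63.7% of its exonic bases with Gm42878 and 24.0% with Mapkapk5, both on the same strand, so its values of 29.1 to 220.4 in KO and 13.9 to 435 in WT are uncertain.

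Adamts10 had the smallest p of the 39 genes in the fit without the replicate block. It encodes a secreted protein with an ADAMTS protease domain that binds fibrillin and whose loss causes Weill-Marchesani syndrome in humans. Adamts10 (ENSMUSG00000024299, chromosome 17, 33524204 to 33553782) had 7635, 4924 and 4578 scaled reads in KO replicates 1 to 3, against 3215, 2732 and 2235 in WT replicates 1 to 3. All 3 KO libraries lay above all 3 WT libraries, and by number KO was at 2.37, 1.8 and 2.05 times WT. The group values were 5712 ± 1674 in KO and 2727 ± 490.0 in WT (SD, n = 3 each).

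The log2 fold change of Adamts10 was 1.04 (SE 0.26), with an unadjusted p of 0.00515 and an adjusted p of 0.999 in limma, and it did not pass. With the replicate block its SE was 0.17 and its adjusted p 0.299. It stayed between 0.815 and 1.18 as single libraries were left out. In the authors' deposited table Adamts10 had a log2 ratio of 1.07 at an FDR of 0.0815, the lowest FDR of the 39 genes there.

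Adamts5 and Adamts1, both aggrecan- and versican-cleaving proteases, are neighbours on chromosome 16, 53.1 kb apart, and had the highest levels of the ADAMTS genes per length (2234 and 2093 scaled reads per kb). Adamts5 had 24329, 52596 and 12409 scaled reads in KO replicates 1 to 3, against 14150.2, 7040.5 and 34103 in WT replicates 1 to 3. Adamts1 had 7879, 27585 and 4310.4 scaled reads in KO replicates 1 to 3, against 3594, 4754 and 18450.2 in WT replicates 1 to 3. For both genes KO replicate 2 was the highest library and WT replicate 3 the second, and KO was above WT in replicates 1 and 2 and below it in replicate 3. The log2 fold changes were 0.74 (SE 0.72) for Adamts5 and 0.52 (SE 0.86) for Adamts1, smaller than the differences among cultures of 1 genotype. Without both libraries numbered 3 they were 1.84 for Adamts5 and 1.83 for Adamts1, at an unadjusted p of 0.0184 and 0.0338 in limma and an adjusted p of 0.792 for each.

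Adamts4, another aggrecan-cleaving protease of the family, had 502, 184 and 607 scaled reads in KO replicates 1 to 3, against 509.7, 1094 and 1427 in WT replicates 1 to 3. KO was below WT in each pair, at 0.984, 0.168 and 0.425 times, with replicate 1 nearly equal, and the log2 fold change was -1.27 (SE 0.56) with an unadjusted p of 0.0573. Adamts9, a versican protease, had 11.8, 259.7 and 309 scaled reads in KO and 772, 95.5 and 659 in WT, with KO replicate 1 far below the others and a log2 fold change of -1.82 (SE 1.40). Adamts2, the main procollagen N-proteinase, had 7645, 7016 and 8012 scaled reads in KO and 6104, 8567 and 4015 in WT, a log2 fold change of 0.34 (SE 0.29).

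Adamts6, a close relative of Adamts10, had 537, 717 and 756 scaled reads in KO and 418, 582 and 560.1 in WT. KO was above WT in each pair by a similar factor, at 1.28, 1.23 and 1.35 times, although the groups overlapped, and the log2 fold change was 0.36 (SE 0.25) with an unadjusted p of 0.189. Adamts12 had 504, 426 and 744 scaled reads in KO and 308, 437 and 489 in WT, a log2 fold change of 0.42 (SE 0.31). Adamts3, Adamts14 and Adamts15 were each highest in KO replicate 3, a trait noticed after their values were seen. There the procollagen proteinases Adamts3 and Adamts14 had 254 and 636 scaled reads and the versican protease Adamts15 had 261. In the other 5 libraries Adamts3 ran from 3.56 to 40.9 and Adamts15 from 0 to 38.5 scaled reads, and Adamts14 from 57.7 to 509. Every gene in the table reached at least 200.5 estimated reads in 1 or more libraries. Adamts3 and Adamts15 did so only in KO replicate 3. They are thus members only through that library, and no result is drawn from their high value there. The 0 of Adamts15 was in WT replicate 1, where a count of 0 allows up to 3 reads, or 3.56 scaled reads. Adamts7 ran from 592 to 950.1 in KO and from 607 to 1125 in WT.

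**Figure D4:**
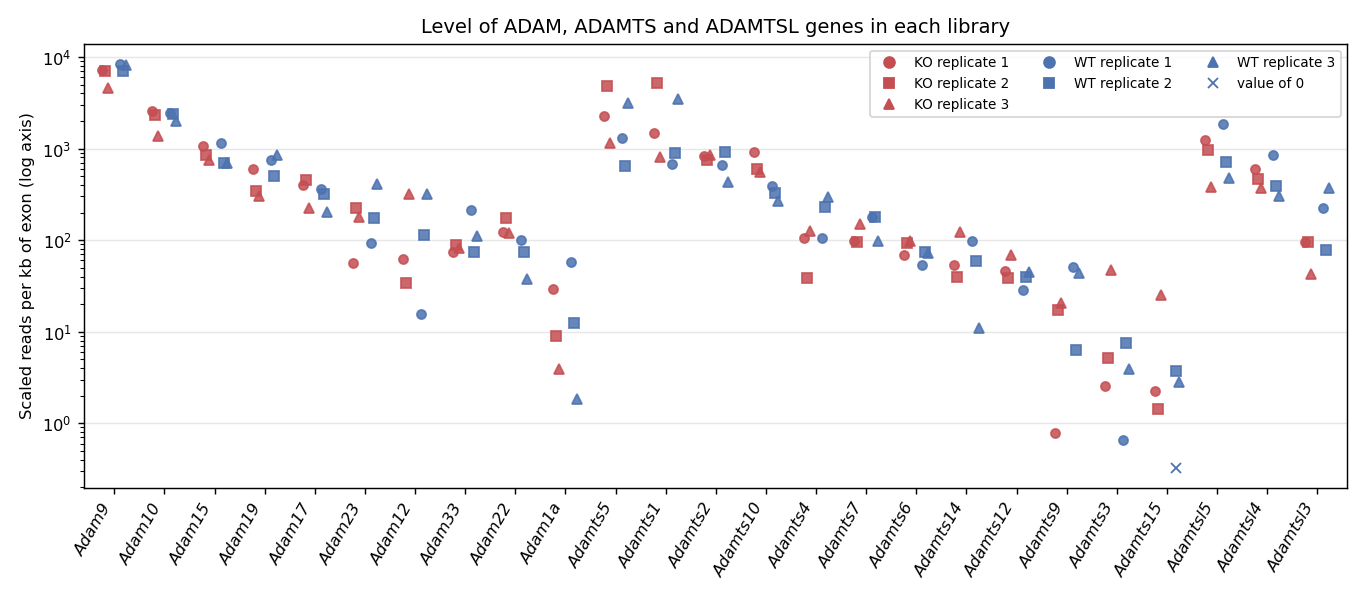
Scaled reads per kb of exon (log axis) of the 10 ADAM, 12 ADAMTS and 3 ADAMTSL genes, each point 1 library, with KO left of WT, symbols for the replicate number and a cross for a value of 0. Adamts10 and Adam22 have KO points above all WT points, and Adamts3 and Adamts15 have 1 high point, KO replicate 3. Only in that library did Adamts3 and Adamts15 reach the level that every gene in the table reaches at least once.

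ADAMTSL proteins bind fibrillin microfibrils and have no protease activity. Adamtsl5 and Adamtsl4, the second of them known for its part in the suspension of the lens, had 5856, 4566 and 1792 scaled reads in KO and 8741, 3366 and 2269.6 in WT for Adamtsl5, and 2539, 1928 and 1549 scaled reads in KO and 3586, 1633 and 1286 in WT for Adamtsl4. Both were highest in replicate 1 of each group and lowest in replicate 3, and their log2 fold changes were -0.16 (SE 0.62) and 0.00 (SE 0.40). Adamtsl3 had 743, 748 and 334 scaled reads in KO and 1724, 599 and 2846 in WT, a log2 fold change of -1.32 (SE 0.62) with an unadjusted p of 0.0712. Its WT libraries spanned a wider range than its KO libraries, and WT replicate 2 lay within the KO range.

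Over all 39 genes, 0 passed an adjusted p of 0.05 in limma, where 0 of 12363 genes (0%) passed, and 0 did with limma-voom or with the replicate block. Lrrc8a, the gene lost in KO, had a log2 fold change of -1.51 (SE 0.34) and an adjusted p of 0.999 in limma. It did not pass either, so the lack of a call does not show the lack of a change. The smallest adjusted p of any member in limma was 0.999 without the block and 0.259 with it. With library weights in limma it was 0.0973, for Adamts10, and Adamts10 had 0.119 with the block and library weights together. At an unadjusted p under 0.05 limma had 2 members higher in KO, Adamts10 and Adam22, against 1.46% of all genes tested. It had 1 member lower in KO, Adam19, against 2.15% of all genes. limma-voom also gave 2 higher and 1 lower, where 1.31% and 1.92% of all genes were called, and library weights gave 5 higher and 3 lower, where 8.05% and 10.4% were. With the block 2 members were higher, against 3.17% of all genes, and 2 were lower, Adam19 and Mmp13, against 4.25%. Without both libraries numbered 3, again 0 of the 39 passed an adjusted p of 0.05. At an unadjusted p under 0.05 this left 4 higher in KO (Adamts10, Adam22, Adamts5 and Adamts1), against 2.43% of all genes, and 3 lower (Mmp3, Mmp13 and Adamts7), against 3.79%.

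Groups did not overlap for 3 of the 39 members, Adamts10, Adam22 and Mmp11, all with KO higher, where 3.91% of all genes had KO higher and 8.43% did not overlap in either direction. For these 3 the exact permutation p, two-sided, was 0.1, and no smaller one exists for groups of this size. No member had an FDR under 0.05 in the authors' deposited table (0 of 39), where 0.525% of genes did. By direction 20 members had a log2 fold change above 0 and 19 below, with a median of 0.00, beside a median of 0.00 over all genes tested. By family the median was 0.03 for TIMPs, -0.14 for MMPs, -0.16 for ADAMs, 0.47 for ADAMTS genes and -0.16 for ADAMTSL genes. The ADAMTS median includes Adamts3 and Adamts15, which are members through KO replicate 3 alone.

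By replicate number 6 members had KO above WT in all 3 pairs and 4 had KO below WT, against 15.7% and 15.0% of all genes. The first were Adamts10, Adam22, Mmp11, Adamts6, Adam17 and Timp3, and the second Mmp13, Adamts4, Adam19 and Adam9. The members varied widely among cultures of 1 genotype. Their median residual SD on the log2 scale was 0.77, beside 0.36 over all genes tested. For 10 of the 39 the highest library was more than 10 times the lowest on the value + 2 scale, against 6.96% of all genes.

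**Figure D5:**
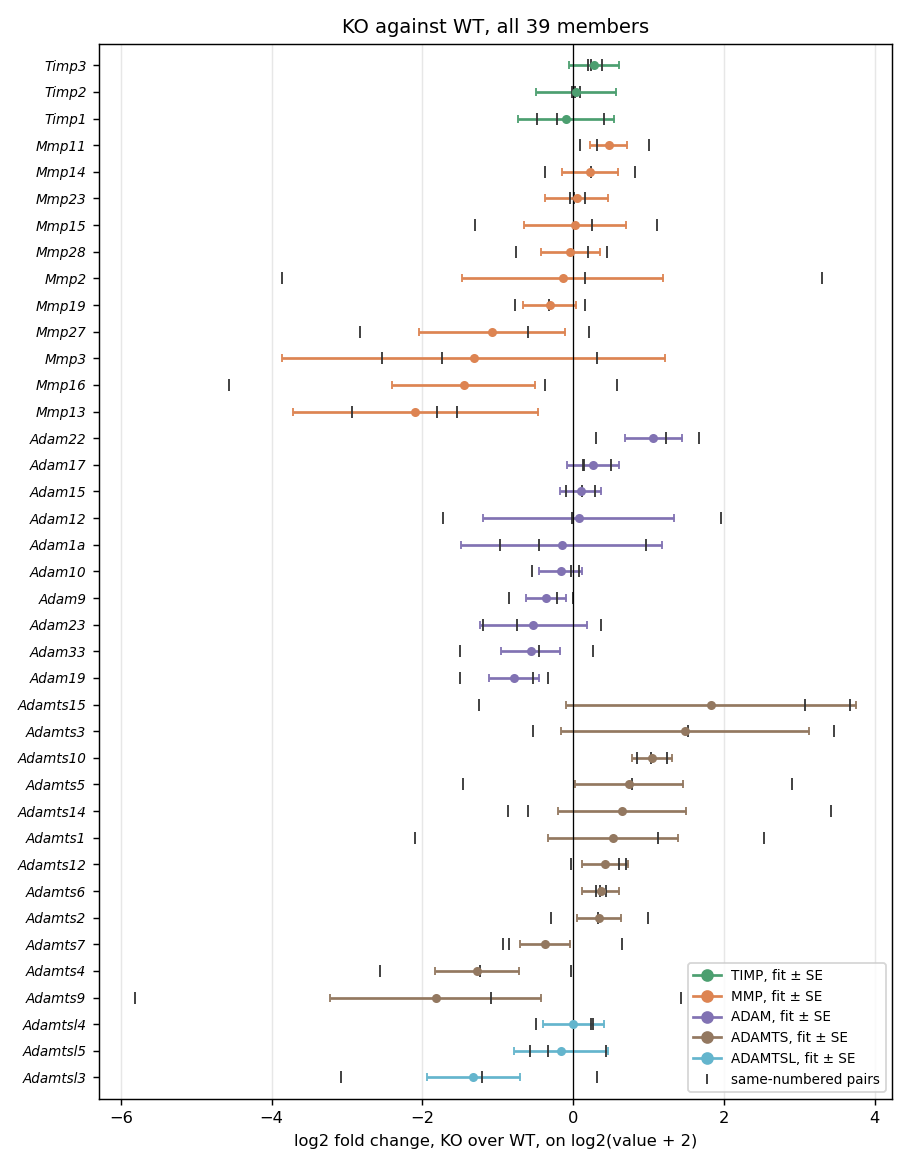
log2 fold change, KO over WT, on log2(value + 2) for each of the 39 members, with points and bars for the limma estimate ± SE (n = 3 each) and black ticks for the same-numbered pairs, grouped by family. The bars of Mmp3, Mmp13, Adamts9 and Adamts15 are wide, and those of Adamts10 and Adam22 are narrow and lie above 0.

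Genes that activate, anchor, clear or restrain these proteases made a list of 31, of which 23 were in the table and tested. In that list 9 had a log2 fold change above 0 and 14 below, with a median of -0.13, and limma passed 0 of them over all genes; 1 was higher and 1 lower at an unadjusted p under 0.05, where 1.46% and 2.15% of all genes were. Plau, the urokinase that generates plasmin, an activator of pro-MMPs, had 468, 566 and 504 scaled reads in KO and 1197, 926 and 649 in WT, a log2 fold change of -0.81 (SE 0.27). Every KO library of Plau lay under every WT library. Rhbdf2, or iRhom2, the partner that brings ADAM17 to the surface, had 292, 31.2 and 792 scaled reads in KO and 2396, 531 and 862 in WT, a log2 fold change of -2.38 (SE 1.19), with overlapping groups. Thbs1, or thrombospondin 1, a matrix protein that also binds MMPs, had 203362, 184388 and 147717 scaled reads in KO and 98848, 109809 and 114641 in WT, a log2 fold change of 0.72 (SE 0.28), with every KO library above every WT library.

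Of a list of 26 matrix genes, 19 were tested. They are substrates of MMPs and ADAMTS enzymes, Thbs1 among them, except for the hyaluronan synthase gene Has2, which the counts include. Their median was 0.40, with 13 above 0 and 6 below, and limma passed 0 of these as well; 1 was higher and 1 lower at an unadjusted p under 0.05, beside the same 1.46% and 2.15% of all genes. Besides Thbs1, the members with the smallest p were Fbln1, or fibulin 1, with 48.1, 68.2 and 908 scaled reads in KO and 3648, 2304 and 381 in WT, the collagen chain gene Col5a1 with 43371, 27569 and 56639 scaled reads in KO and 30244, 18179 and 23574 in WT, and Tnc, or tenascin C, with 38999.8, 16133 and 27315 scaled reads in KO and 41132, 38206 and 96624 in WT. Their log2 fold changes were -3.33 (SE 1.31) for Fbln1, 0.80 (SE 0.35) for Col5a1 and -1.05 (SE 0.47) for Tnc.

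Of 32 membrane proteins shed by ADAM10 or ADAM17, 29 were tested, with 14 above 0 and 15 below and a median of -0.07. limma passed 0 of them over all genes; 0 were higher and 2 lower at an unadjusted p under 0.05, again beside 1.46% and 2.15% of all genes. The pair was Icam1, a leukocyte adhesion molecule, with 1595, 1453 and 1821 scaled reads in KO and 7454, 5838 and 11563 in WT, and Ereg, or epiregulin, a ligand of the epidermal growth factor receptor, with 989, 421 and 358 scaled reads in KO and 1805, 1325 and 933 in WT. Hbegf, another such ligand, had 343, 451 and 403 scaled reads in KO and 2169, 1652 and 342 in WT and the receptor Ephb4 2108, 2591 and 3339.6 scaled reads in KO and 1219, 2055 and 2178 in WT. Their log2 fold changes were -2.30 (SE 0.28) for Icam1, -1.30 (SE 0.44) for Ereg, -1.43 (SE 0.67) for Hbegf and 0.58 (SE 0.29) for Ephb4. Icam1 had every KO library under every WT library, an unadjusted p of 6.66e-05 in limma and an adjusted p of 0.274.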

How the data were processed

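Stranded, poly(A)-selected libraries of 3 KO and 3 WT cultures were sequenced as paired ends, per the labels' protocols. The submitters' processing notes name the builds mm39 and GRCm39 and the tools DESeq2, Partek and STAR, and give neither a version nor a role for them. Coordinates in the deposited table match GRCm38: 12341 of 12385 genes have the start of GENCODE M21, and ends are given as 1 base before the deposited stop.

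The deposited per-library values are a scaled signal, in which the reads of each library were divided by its own factor, although 1 file is named for raw counts. Low values lie on steps of 0.712 to 1.19 per read, and 83.0% to 92.8% of values up to 50 reads were within 0.05 reads of a whole number, too few to recover counts. The authors' deposited comparison gives a p-value, a step-up FDR, a ratio and a log2 ratio, KO over WT.

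limma 3.58.1 (R 4.3.3) was fitted to log2(value + 2) with genotype alone, a mean trend and robust priors. It covered 12363 genes, those that reached 10 scaled reads in 3 or more libraries, all 39 members among them. Tests are two-sided, and Benjamini-Hochberg adjustment ran over all genes tested. The fit was tested on simulated data with independent libraries of equal spread. That test does not cover the shared deviations of same-numbered libraries given below. Exonic lengths come from GENCODE M21. The p-values measure the spread between these 6 libraries. Same-numbered libraries deviated together (correlations across genes of 0.433, 0.151 and 0.389, each over the 0.1 set for paired samples), though no label says what the numbers mark. Libraries of different numbers were not compared, so this does not show that the numbers mark pairs. The main fit has no block, and the fit with the replicate number as a block is given beside a result where it bears on a call.

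Every Timp and Mmp gene is described. In the other families these are the members at an unadjusted p under 0.05, up to 6 with the smallest p and the 2 highest per length, and the rest are given as ranges. From each further list up to 4 genes with the smallest p are named, except 1 gene that is not reported here. Members and lists were chosen with earlier results of these data known. The alternatives were other scalings, filters, pseudocounts and variance priors, the other deposited table, limma-voom, library weights, the replicate block, leaving out each library and, added after the data were seen, leaving out both libraries numbered 3.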

Additional observations from a re-analysis of the deposited data

How the results depend on the processing

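No member passed an adjusted p of 0.05 under any of the 12 other settings or without any single library. Over all genes limma called 0, and 30 with library weights, 5 with the replicate block and library weights together, and 0 to 1 without single libraries, the 1 without KO replicate 1. With library weights, which gave WT replicate 2 a weight of 7.99 and the other libraries 0.361 to 1.97, 5 members were higher and 3 lower at an unadjusted p under 0.05. The lower count was 0 with TMM scaling, 0 with variance priors without trend or robust fitting, 2 with the replicate block and 5 with the replicate block and library weights. The replicate block changed no adjusted call of a member. Without single libraries 1 to 3 members were higher and 0 to 3 lower. The 1 and the 0 came without KO replicate 2, the 3 higher without WT replicate 1 and the 3 lower without WT replicate 2.

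The sign of 17 members turned when 1 library was left out, with log2 fold changes running from the lowest to the highest value for Adam10 (-0.34 to 0.11), Adam12 (-1.13 to 1.04), Adam15 (-0.0391 to 0.35), Adam1a (-1.38 to 1.01), Adam23 (-1.03 to 0.0874), Adamts1 (-0.22 to 1.24), Adamts14 (-0.26 to 1.28), Adamtsl4 (-0.30 to 0.44), Adamtsl5 (-0.58 to 0.39), Mmp14 (-0.0356 to 0.50), Mmp15 (-0.64 to 0.71), Mmp2 (-1.50 to 0.80), Mmp23 (-0.34 to 0.37), Mmp28 (-0.33 to 0.37), Mmp3 (-3.96 to 0.50), Timp1 (-0.66 to 0.44) and Timp2 (-0.39 to 0.48). With library weights the sign turned for Adam12 (-1.04), Adam33 (0.0612), Adamts14 (-0.232), Adamts15 (-0.389), Adamts2 (-0.158), Adamts3 (-0.245), Adamtsl3 (0.00945), Adamtsl5 (0.343), Mmp23 (-0.222) and Mmp28 (0.296). With the replicate block and library weights it turned for Adam12 (-0.609), Adamts14 (-0.096), Adamtsl5 (0.0872) and Mmp28 (0.126). Without both libraries numbered 3, an alternative chosen after seeing the data, 0 members passed an adjusted p of 0.05, 4 were higher and 3 lower at an unadjusted p under 0.05, and the sign turned for Adam10 (0.0241), Adamts14 (-0.733), Adamtsl4 (-0.129) and Mmp16 (0.102). The cause was not tested. The other 17 members kept their sign under the 12 other settings and without any single library, Adamts10, Adam22, Adam19, Mmp11 and Mmp13 among them. With a filter of at least 100 in 3 libraries 35 of the 39 members could be tested.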
